A study of Mus musculus with 2 samples.

Results

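The genes followed in nuclei of fetal mouse lung were 10 genes of the alveolar type 1 (AT1) cell, called members below: Ager, Hopx, Rtkn2, Clic5, Aqp5, Pdpn, Akap5, Spock2, Gprc5a and Msln. They were taken by name as 10 of the 32285 gene features of the count tables, and all 10 were found in both libraries. The nuclei came from wild-type C57BL/6J fetuses at gestation day 18. In the OVA group the mothers had been sensitized to ovalbumin (OVA) with alum and then given OVA through the nose during pregnancy. In the PBS group the mothers had received PBS with alum and then PBS through the nose. Lungs of 8 OVA fetuses and of 9 PBS fetuses were pooled, each pool from a single dam and read as 1 library. Before nuclei were isolated, cells sorted as ILC2s (CD45+ Lin- ST2+, group 2 innate lymphoid cells), as CD45+ or as EpCAM+ were mixed, so the shares of cell types are not those of the whole lung. RNA and accessible chromatin were read from the same nucleus. Since each group was 1 library, a difference between the groups compares these libraries and could not be tested. Intervals in parentheses are 95% intervals for counting error only.

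AT1 cells are the thin, flat cells across which gas passes between air and blood, and they cover most of the alveolar surface. In the fetal lung they arise, together with the surfactant-making alveolar type 2 (AT2) cells, from distal epithelial progenitors, and AT1 differentiation is known to depend on YAP, TAZ and TEAD factors and on NKX2-1. The members include a receptor of the immunoglobulin family, a water channel, surface glycoproteins, scaffold and signalling proteins and a transcriptional cofactor, and they are used as AT1 markers in the postnatal lung.

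The PBS library held 8019 barcodes and 11473351 gene UMIs (unique molecular identifiers), and the OVA library held 5960 barcodes and 13774959 gene UMIs. Mitochondrial genes took 45.2% (PBS) and 29.2% (OVA) of the UMIs. After filters 4279 PBS and 4996 OVA nuclei were kept, with medians of 1115 and 1820 UMIs per nucleus. The libraries shared 54 barcode sequences. Nuclei were clustered without the members and were named "X-like" from other marker genes. There were 298 PBS and 371 OVA AT1-like nuclei, and 406 PBS and 260 OVA AT2-like nuclei. Fibroblast-like nuclei made up 21.7% (PBS) and 23.5% (OVA) of the kept nuclei, Myofibroblast-like 10.6% and 7.69%, and Pericyte-like 2.76% and 2.82%. None of the sorting gates names such cells, and how they came into the libraries was not tested. The AT1-like class joined a deeper cluster (111 PBS and 253 OVA nuclei) and a shallower cluster (187 PBS and 118 OVA nuclei), so a different cluster held most of the class in each library. Of the 8 AT1 markers used for naming, 7 were raised in the deeper cluster and 6 in the shallower one, and Igfbp2 was near 0 in both types. All 8 AT2 markers were also present in AT1-like nuclei. Sftpc, which encodes surfactant protein C, stood at 5357 CPM (UMIs scaled to 1000000 gene UMIs of the same nuclei) in PBS and 4846 CPM in OVA AT1-like nuclei, against 19398 and 20925 CPM in AT2-like and 243 and 176 CPM in Macrophage-like nuclei. The part of this AT2 RNA in the results below was not tested.

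Every member was at its highest in AT1-like nuclei, among the 9 types with at least 50 nuclei in each library, in both libraries. Summed over the 10 members, AT1-like nuclei held 7156 CPM in PBS (5949 UMIs) and 7592 CPM in OVA (9350 UMIs). AT2-like nuclei held 855 CPM (577 UMIs) and 670 CPM (435 UMIs), which was 8.37-fold lower in PBS and 11.3-fold lower in OVA. AT1-like nuclei made up 6.96% and 7.43% of the kept nuclei and carried 77.4% and 84.5% of all member UMIs. All 10 of the 10 members were at least 2-fold higher in AT1-like than in AT2-like nuclei in both libraries, whereas 13.3% of 2058 genes with at least 100 UMIs in the 2 types of each library were. The median log2 ratio of the members was 3.04 in PBS and 3.75 in OVA, beside 0.30 and 0.16 over all genes tested. The members were chosen with earlier results of these data known, so these contrasts describe them and do not test the choice.

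**Figure D1:**
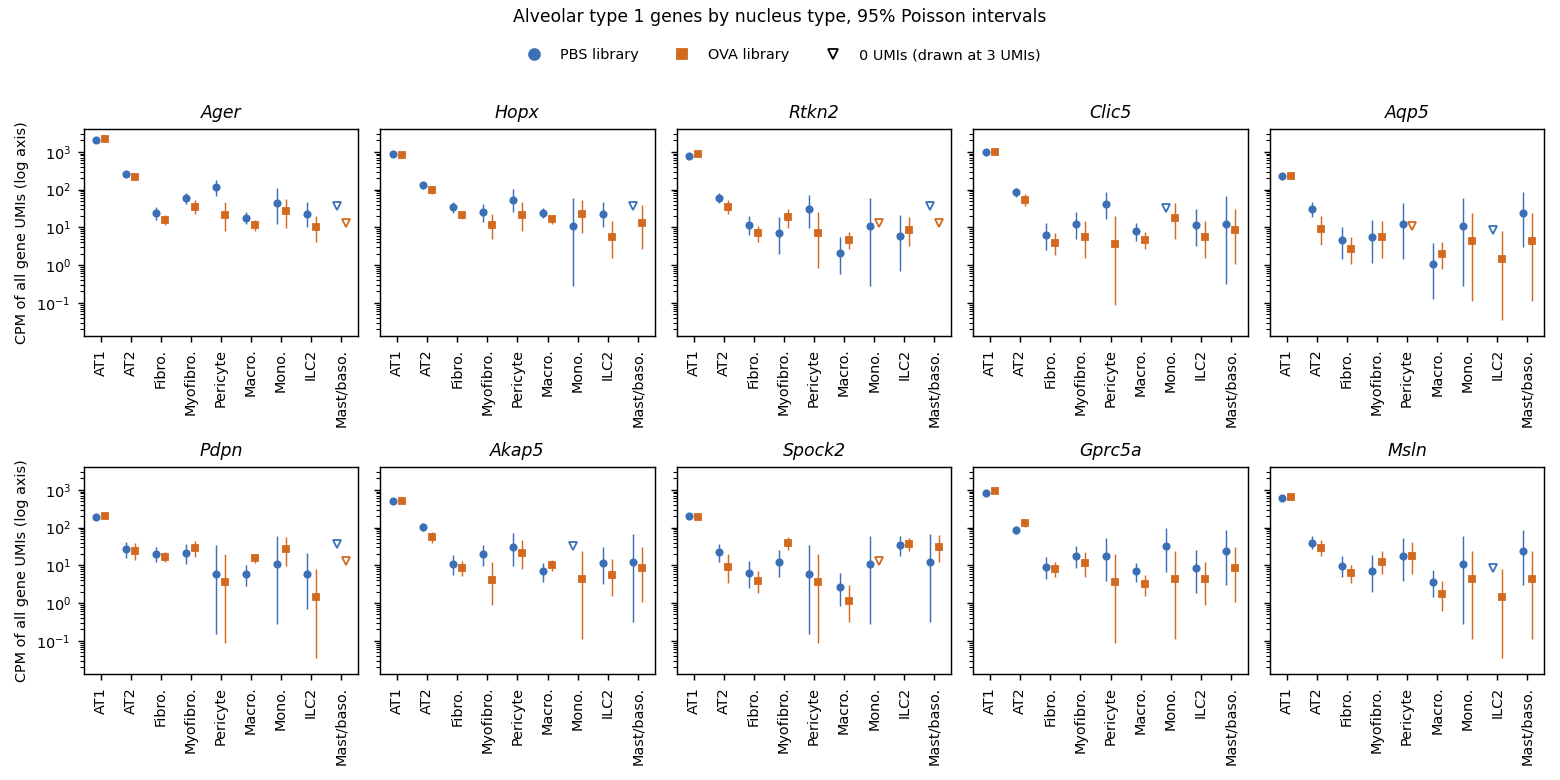
Level of each member in 9 nucleus types, in CPM on a log axis, with 1 panel per member. Circles are the PBS library and squares the OVA library, bars are exact 95% Poisson intervals, and open triangles mark 0 UMIs and are drawn at the level of 3 UMIs. In every panel both AT1-like points lie above all others, from 189 CPM for Pdpn in PBS to 2165 CPM for Ager in OVA.

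Of the surface proteins, Ager (ENSMUSG00000015452, mm10 chr17:34597862-34600936, plus strand) encodes RAGE, the receptor for advanced glycation end products, which AT1 cells carry on their basal side. Ager stood at 2003 CPM in PBS and 2165 CPM in OVA AT1-like nuclei and at 265 and 222 CPM in AT2-like nuclei, log2 ratios of 2.92 (2.69 to 3.15) and 3.29 (3.04 to 3.54). Among the 9 types AT2-like nuclei were next in order, and they were above the third type in each library by more than counting error. Outside the 9 types, Club-like nuclei held 168 CPM of Ager (15 UMIs) and 119 CPM (8 UMIs). An unnamed cluster with haemoglobin and endothelial leading genes held 443 and 368 CPM, above AT2-like nuclei, from 7 and 5 nuclei. Aqp5 (ENSMUSG00000044217, chr15:99590782-99594829, plus strand) encodes the water channel of the apical membrane. It had 224 and 231 CPM in AT1-like and 31.1 and 9.24 CPM in AT2-like nuclei, the latter from 21 and 6 UMIs. Its AT2-like level could not be told from that of the type after it in either library. Pdpn (ENSMUSG00000028583, chr4:143267431-143299564, minus strand) encodes podoplanin, a mucin-like glycoprotein also made by lymphatic endothelium and mesothelium. It had 189 and 197 CPM in AT1-like and 26.7 and 24.7 CPM in AT2-like nuclei, and it was the member with the smallest share of its UMIs in AT1-like nuclei, 64.6% and 59.7%. Among the 9 types, its next levels in the OVA library were in Myofibroblast-like (28.0 CPM) and Monocyte-like nuclei (26.6 CPM), not in AT2-like nuclei. The log2 ratio of Myofibroblast-like over Monocyte-like nuclei was 0.08 (-1.29 to 1.68). Mesothelial-like nuclei, outside the 9 types, held 83.6 CPM of Pdpn in PBS (2 UMIs) and 94.3 CPM in OVA (4 UMIs). Their log2 ratios to AT1-like nuclei, -1.18 (-4.23 to 0.70) and -1.07 (-2.95 to 0.31), did not separate the types.

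Msln (ENSMUSG00000063011, chr17:25748613-25754378, minus strand) encodes mesothelin, a membrane-anchored glycoprotein. Its AT1-like levels were 603 and 628 CPM against 40.0 and 29.3 CPM in AT2-like nuclei, log2 ratios of 3.91 (3.35 to 4.53) and 4.42 (3.77 to 5.16). Mesothelial-like nuclei, of which there were only 10 and 14, held 460 CPM (11 UMIs) and 448 CPM (19 UMIs) of Msln. Their log2 ratios to AT1-like nuclei, -0.39 (-1.40 to 0.46) and -0.49 (-1.23 to 0.16), did not separate the types. Gprc5a (ENSMUSG00000046733, chr6:135065651-135084709, plus strand) encodes a retinoic acid-induced orphan receptor with 7 membrane passes. It had 802 and 959 CPM in AT1-like nuclei and 87.4 and 131 CPM in AT2-like nuclei, and it was the sole member whose AT1-like over AT2-like ratio was smaller in the OVA library (7.32-fold) than in the PBS library (9.18-fold). In the few Club-like nuclei, 35 and 16, Gprc5a stood at 134 and 253 CPM from 12 and 17 UMIs.

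Clic5 (ENSMUSG00000023959, chr17:44188584-44280172, plus strand) encodes a chloride intracellular channel protein tied to the actin cortex. Its levels were 1008 and 1000 CPM in AT1-like and 85.9 and 53.9 CPM in AT2-like nuclei. Akap5 (ENSMUSG00000021057, chr12:76324891-76334153, plus strand) encodes a scaffold that anchors protein kinase A. Akap5 had 509 and 516 CPM in AT1-like and 105 and 55.5 CPM in AT2-like nuclei, and its PBS ratio of 4.84-fold was the smallest of the 10 members in that library. Rtkn2 (ENSMUSG00000037846, chr10:67979570-68059740, plus strand) encodes rhotekin 2. Rtkn2 stood at 763 and 859 CPM against 60.7 and 35.4 CPM, or 12.6-fold and 24.2-fold. Hopx (ENSMUSG00000059325, chr5:77086988-77115121, minus strand, overlapped by the antisense gene Hopxos) encodes a homeodomain-only protein that does not itself bind DNA. Hopx had 858 and 840 CPM in AT1-like and 130 and 100 CPM in AT2-like nuclei. In Macrophage-like nuclei Hopx took 30.7% and 23.5% of the member UMIs, against 11.99% and 11.07% in AT1-like nuclei. Other types lay on both sides, from 25.0% in PBS Fibroblast-like to 6.56% in OVA Myofibroblast-like nuclei among types with at least 50 member UMIs.

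Spock2 (ENSMUSG00000058297, chr10:60106219-60135198, plus strand) encodes testican-2, a proteoglycan of the extracellular matrix. It stood at 198 and 196 CPM in AT1-like nuclei and, unlike most members, its next level was not in AT2-like nuclei (22.2 and 9.24 CPM). ILC2-like nuclei held 34.9 CPM in PBS (12 UMIs in 10 nuclei) and 36.8 CPM in OVA (26 UMIs in 20 nuclei). That was above the other non-epithelial nuclei by a log2 ratio of 2.63 (1.48 to 3.70) and 2.47 (1.73 to 3.19), while the 10 members summed gave 0.01 (-0.48 to 0.46) and -0.17 (-0.59 to 0.22) in the same nuclei. Spock2 in Myofibroblast-like nuclei differed between the libraries, with 12.6 CPM in PBS (7 UMIs in 7 nuclei) and 39.3 CPM in OVA (28 UMIs in 25 nuclei), a log2 ratio of 1.64 (0.41 to 3.08). Pdpn differed likewise in Macrophage-like nuclei, with 5.83 CPM in PBS (11 UMIs in 10 nuclei) and 15.5 CPM in OVA (54 UMIs in 36 nuclei), a log2 ratio of 1.41 (0.46 to 2.49). A Macrophage-like cluster with Ccl6, Car4, Inhba and Spp1 among its leading genes held 24 of the OVA UMIs, in 13 of 150 nuclei, and 2 of the PBS UMIs, in 2 of 147 nuclei, a log2 ratio of 3.14 (1.13 to 6.27). The other larger Macrophage-like clusters were unevenly filled by the libraries, one with 815 PBS and 475 OVA nuclei and one with 139 and 733. Their Pdpn log2 ratios were 0.72 (-1.49 to 3.06) and -0.19 (-1.60 to 1.55), from 3.44 and 5.69 CPM and from 13.5 and 11.9 CPM. Both differences were picked out after the values had been seen.

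Most single AT1-like nuclei held several of the members. Whether members occurred together beyond what their single shares give was not tested. To take depth out, each nucleus was thinned to 500 UMIs of nuclear genes, which left 204 PBS and 316 OVA AT1-like nuclei and dropped 94 and 55 shallower ones. At least 3 of the 10 members were then detected in 70.6% (63.8% to 76.7%) of PBS and 70.9% (65.5% to 75.8%) of OVA AT1-like nuclei, with means of 3.52 and 3.58 members per nucleus. In AT2-like nuclei the shares were 6.98% (22 of 315) and 1.67% (4 of 240). In Macrophage-like nuclei, whose member levels were low, they were 0.118% (1 of 849) and 0 of 1370. The latter allows a share of up to 0.219% when 3 nuclei are taken as the limit and 0.269% by the exact interval. Free RNA in the droplets is part of any such share. At least 1 member was seen in 97.1% and 94.9% of AT1-like, 39.7% and 35.4% of AT2-like and 7.18% and 6.20% of Macrophage-like nuclei. Without thinning, 84.6% and 91.4% of AT1-like nuclei had 3 or more members, as did 12.8% and 12.7% of AT2-like nuclei.

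Ager was the member found in most thinned AT1-like nuclei, 70.1% and 68.7%. Clic5 was found in 49.5% and 45.3%, Gprc5a in 41.7% and 49.1%, and Hopx in 44.1% and 40.5%. Aqp5, Pdpn and Spock2 were each found in 13.2% to 17.1%. Ager was also the member most often found in AT2-like nuclei, 18.1% and 13.3%, against 1.88% and 1.24% of Macrophage-like nuclei, so its share in AT2-like nuclei was above that of Macrophage-like nuclei in both libraries. Among PBS Pericyte-like nuclei Ager was found in 6 of 69, or 8.70% (3.26% to 17.97%), an interval that overlaps the AT2-like one (14.003% to 22.8%).

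**Figure D2:**
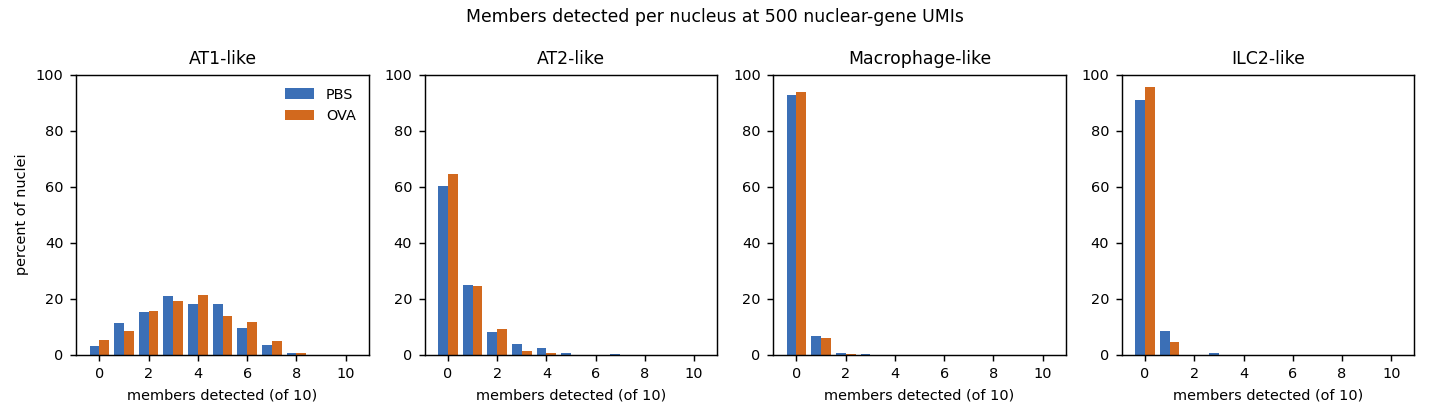
Percent of nuclei with 0 to 10 members detected after thinning to 500 nuclear-gene UMIs, in AT1-like, AT2-like, Macrophage-like and ILC2-like nuclei. Blue bars are the PBS library and orange bars the OVA library. AT1-like nuclei spread up to 8 members, whereas most nuclei of the other types had none.

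The study compared fetuses of OVA and PBS mothers, and within AT1-like nuclei the members stood at nearly the same level in both libraries. The summed log2 ratio, OVA over PBS, was 0.09 (0.04 to 0.13), a 1.06-fold difference. Gprc5a had the highest ratio, 0.26 (0.12 to 0.40), from 802 to 959 CPM, followed by Rtkn2 at 0.17 (0.03 to 0.32) and Ager at 0.11 (0.02 to 0.20). The intervals of the other 7 members held 0, and their values ran from -0.03 for Hopx to 0.06 for Pdpn and Msln. None of the 10 members was 2-fold higher, beside 2.5% of the 3155 genes tested. The median member, at 0.05, was below the median of all those genes, 0.23. Mitochondrial UMIs took 27.3% of the AT1-like UMIs in PBS and 18.3% in OVA. Counted over nuclear-gene UMIs alone the summed ratio turned to -0.08 (-0.13 to -0.04), and among nuclei with at most 20% mitochondrial UMIs it was -0.44 (-0.51 to -0.37), so its direction depended on the denominator and the filter. Ager, Rtkn2 and Gprc5a were at -0.41, -0.32 and -0.23 among those nuclei.

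The deeper and the shallower AT1-like clusters gave summed ratios of 0.08 (0.03 to 0.13) and 0.16 (0.04 to 0.28). Gprc5a had 0.24 in each, with an interval that held 0 in the shallower cluster. Rtkn2 was 0.62 (0.23 to 1.01) in the shallower cluster, from 631 to 971 CPM, and 0.09 (-0.07 to 0.24) in the deeper one.

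In AT2-like nuclei, over all gene UMIs, the members stood lower in OVA than in PBS. Their summed level was 855 CPM in PBS and 670 CPM in OVA, a log2 ratio of -0.35 (-0.53 to -0.17), while the median of 1789 genes tested there was 0.43. The values of 9 of the 10 members were below 0, whereas 86.4% of the 1789 genes tested were above 0. Only 4 of the 10 members reached the 100 UMIs asked of the genes tested. The lowest were Aqp5 at -1.75 (-3.35 to -0.39, 21 and 6 UMIs) and Spock2 at -1.27 (-2.92 to 0.18), followed by Akap5 at -0.92 (-1.54 to -0.33). Gprc5a was the exception at 0.58 (0.09 to 1.09), with 59 and 85 UMIs. Over nuclear-gene UMIs the summed ratio was -0.62 (-0.80 to -0.44), with AT1-like nuclei below 0 as well at -0.08, and that of Gprc5a was 0.32 (-0.18 to 0.82). Some types with low member levels also held less of them in the OVA library. The ratios were -0.54 (-0.84 to -0.24) in Fibroblast-like and -0.63 (-1.23 to -0.02) in ILC2-like nuclei. Those of Macrophage-like nuclei, -0.17 (-0.47 to 0.13), and Myofibroblast-like nuclei, -0.14 (-0.53 to 0.25), had intervals that held 0. The make-up of the member UMIs in such types differed from that in AT1-like nuclei. In Fibroblast-like nuclei Pdpn took 14.5% (PBS) and 17.6% (OVA) of them, against 2.64% and 2.60% in AT1-like nuclei. How much of these UMIs, or of the AT2-like values, was free RNA was not tested.

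**Figure D3:**
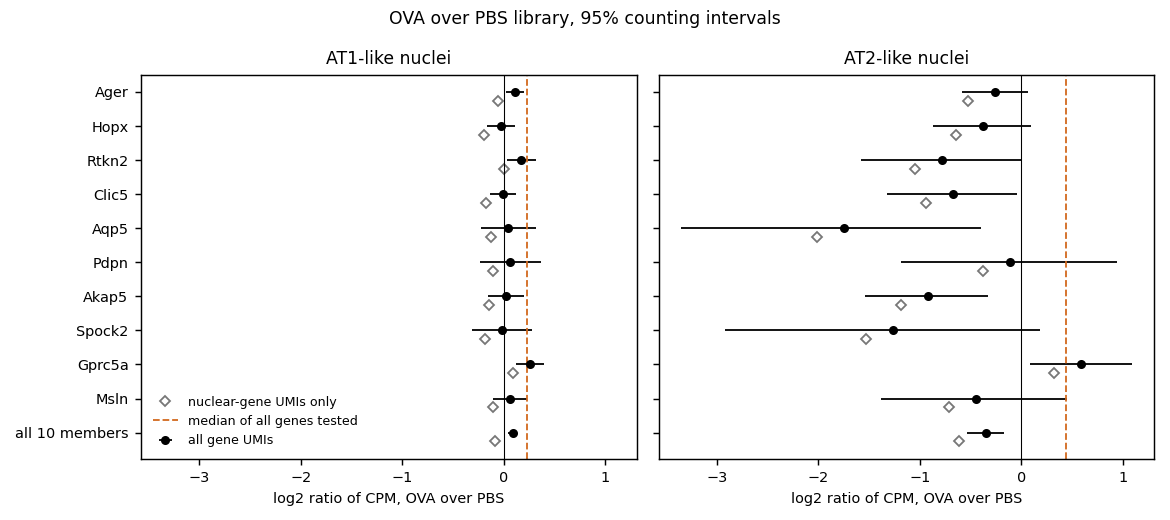
Log2 ratio of CPM, OVA over PBS library, of each member and of their sum in AT1-like nuclei (left) and AT2-like nuclei (right). Black points are over all gene UMIs with 95% counting intervals, open diamonds are over nuclear-gene UMIs alone, and the dashed line is the median of all genes tested, 0.23 and 0.43. In AT1-like nuclei the points lie between -0.03 and 0.26, and in AT2-like nuclei all but Gprc5a lie below 0.

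Other genes with the same pattern over types were sought by the correlation of their log2(CPM + 10) with the mean of the members over 18 points, 9 types in each of 2 libraries. Points of a library share its depth and its free RNA, so the values describe likeness alone. The members correlated with each other at r of 0.64 to 0.97, with a median of 0.90 over 45 pairs. Spock2 followed the mean of the members least, at 0.80, and Rtkn2 most closely, at 0.98. Of 3155 genes, the 5 closest that were not members were Col4a3 (0.99), a basement membrane collagen chain that was also a naming marker, Slc4a5 (0.99), a sodium bicarbonate transporter, Shh (0.98), the Sonic hedgehog ligand, Epb41l4b (0.98) and the polarity gene Pard6b (0.98). Shh had 60.1 and 51.2 CPM in AT1-like and 14.8 and 9.24 CPM in AT2-like nuclei.

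Of a list of 16 other AT1 genes, 15 had at least 30 UMIs in AT1-like and AT2-like nuclei over both libraries. Of the 15, 14 were higher in AT1-like nuclei by more than counting error in both libraries and 13 (86.7%) were at least 2-fold higher in both, beside 9.38% of the 8211 genes with that many UMIs. Their median log2 ratio, AT1-like over AT2-like, was 2.95. With Wnt7a set at its lower bound the median was 2.92. Wnt7a, a Wnt ligand, had 0 UMIs in OVA AT2-like nuclei and was at least 5.62-fold higher in AT1-like ones, taking 3 UMIs of that library as the floor. Cdkn2b, a cell cycle inhibitor, had 5.19 (2.64 to 10.5) in PBS, against 1 AT2-like UMI, and 2.56 (1.36 to 4.05) in OVA. At the low end were Lama3, a laminin chain, at 0.84, and the proteoglycan gene Sdc1, at -0.57. Cyp2b10 had 0 UMIs in AT1-like nuclei of both libraries. The 3 gene lists were likewise chosen with earlier results of these data known, so their shares describe the lists alone.

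Of 14 YAP and TEAD genes, 13 had at least 30 UMIs, with a median of 1.48, and 8 (61.5%) were at least 2-fold higher in AT1-like nuclei in both libraries, beside the same 9.38%. Ajuba, which encodes a LIM protein, had 0 UMIs in AT2-like nuclei and was at least 8.66-fold (PBS) and 4.39-fold (OVA) higher in AT1-like ones, and the YAP target Ccn2 had a mean of 3.18. Vgll4 at 0.08 and Lats1 at 0.36, both brakes on YAP and TEAD, were lowest, and Ankrd1 had 0 UMIs in both types. Of 11 transitional epithelial genes, which rise in AT2 cells turning into AT1 cells after injury, all had at least 30 UMIs, the median was 2.05 and 8 (72.7%) were at least 2-fold higher in both libraries. Itgb6, an integrin chain, was highest at 3.73, then the claudin gene Cldn4 at 3.43, though from 3 AT2-like UMIs in PBS, and Cdkn1a (-0.04) and Ndrg1 (0.30) were lowest. Between libraries, the median log2 ratio OVA over PBS in AT1-like nuclei was 0.23 for the other AT1 genes, 0.35 for the YAP and TEAD genes and 0.45 for the transitional genes, beside 0.05 for the members and 0.23 over all genes tested. The genes named above as highest in the last 2 lists were not alike. Itgb6 had 0.91 (0.69 to 1.13) and Ccn2 1.14 (0.63 to 1.67), while Ajuba had -0.92 (-1.74 to -0.12) and Cldn4 0.15 (-0.33 to 0.64).

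Within 100 kb of their starts, the summed accessibility of the members differed far less between AT1-like and AT2-like nuclei than their RNA did. Accessible regions were the 101838 regions where peaks of both libraries overlapped, of which 217 lay within 100 kb of a member's start. Their transposition counts are given as CPM of accessibility, scaled to 1000000 counts in all such regions of the same nuclei. Summed over the members, the log2 ratio AT1-like over AT2-like was 0.14 (0.10 to 0.19) in PBS and 0.21 (0.16 to 0.26) in OVA, against 3.07 and 3.502 for the RNA. Within 2 kb of the starts the summed accessibility ratio was 0.30 and 0.66. A member's 100 kb sum, of 15 to 33 regions, also took in regions of neighbouring genes. The sums around Ager (log2 ratios of -0.31 and -0.36) and Pdpn were lower in AT1-like than in Macrophage-like nuclei in both libraries. Those around the other members were not. Aqp5, with 0.25 and 0.32, and Ager, with 0.27 and 0.27, were above 0 by more than counting error in both libraries, as were Akap5, Gprc5a and Msln. Clic5, at -0.13 and -0.05, was not above 0 in either. Rtkn2 was lowest in PBS, at -0.25 (-0.47 to -0.04), and had 0.23 (-0.01 to 0.48) in OVA. Pdpn was highest in OVA, at 0.40 (0.09 to 0.72), with -0.10 (-0.37 to 0.17) in PBS. The intervals of Hopx (0.11 and 0.13) and Spock2 (0.15 and -0.09) held 0 in both libraries. Windows around other genes were not measured, so the ratios of the members have no genome-wide value beside them. With the deeper AT1-like cluster alone the PBS values of Aqp5 and Gprc5a were -0.039 and -0.13. Counted per nucleus rather than as CPM the summed ratios were -0.21 and -0.52, since AT1-like nuclei held fewer counts per nucleus (7494 and 5535) than AT2-like nuclei (9563 and 9220).

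**Figure D4:**
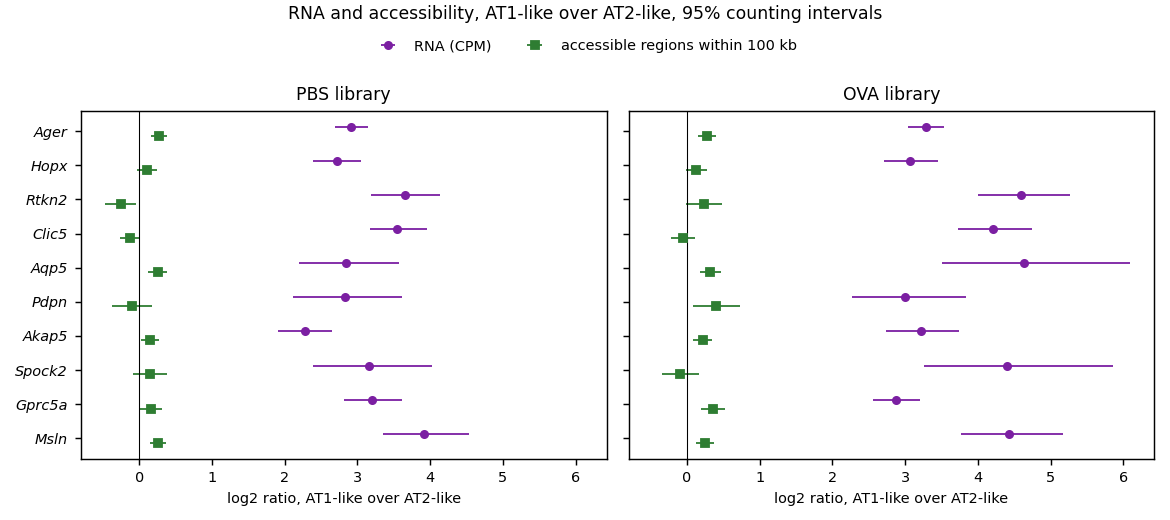
Log2 ratio, AT1-like over AT2-like nuclei, of each member's RNA (purple circles, CPM) and of the summed counts in accessible regions within 100 kb of its start (green squares, CPM of accessibility), in the PBS library (left) and the OVA library (right), with 95% counting intervals. RNA ratios lie between 2.27 and 4.64, and accessibility ratios between -0.25 and 0.40.

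Some regions near the members were more open in AT1-like than in other nuclei. Of 206 regions with enough counts, 46 were at least 2-fold above all other nuclei in both libraries, or 22.3%, beside 9.92% of 90606 regions over the genome. The members were not alike in this: Clic5 had 10 such regions, Hopx, Aqp5 and Gprc5a had 8 each, and Rtkn2 and Pdpn had none. Of the 46 regions 41 were also at least 2-fold more open in AT2-like than in Macrophage-like nuclei in both libraries (89.1%), beside 8410 of 8984 (93.6%) over the genome. Against AT2-like nuclei 2 of 72 regions were at least 2-fold higher in AT1-like nuclei in both libraries, beside 0.576% of 22409 regions, and both lay at Msln. That comparison took regions with at least 50 counts in the 2 types in each library. The Clic5 intron, Gprc5a and Aqp5 regions that lead below, and the start region of Spock2, fell under this minimum and were not among the 72. In the opposite direction 2.41% of those 22409 regions were at least 2-fold higher in AT2-like nuclei.

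The Msln regions were an intronic one 4.76 kb into the gene (chr17:25749163-25750068) and one 2.49 kb before its start (chr17:25756399-25757341). The intronic region had 18.4 (PBS) and 22.9 (OVA) accessibility CPM in AT1-like, 3.61 and 8.34 in AT2-like and 0.502 and 0.494 in Macrophage-like nuclei. Its log2 ratios to AT2-like nuclei were 2.35 (1.44 to 3.34) and 1.46 (0.67 to 2.29), and those of the upstream region were 2.07 (1.32 to 2.85) and 3.203 (2.20 to 4.39). No region shared by both libraries covered the start of Msln itself.

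At Clic5 the region most raised over all other nuclei, 18.5-fold with libraries pooled, lay in an intron 14.6 kb into the gene (chr17:44202711-44203749). It had 13.4 and 19.0 accessibility CPM in AT1-like and 3.09 and 5.84 in AT2-like nuclei, log2 ratios of 2.12 (1.11 to 3.22) and 1.70 (0.79 to 2.70). At Hopx that region lay 11.5 kb before the start (chr5:77126214-77127113), outside any gene, and was 15.05-fold above all other nuclei. It was open in both epithelial types, with 34.5 and 39.0 accessibility CPM in AT1-like, 22.7 and 15.9 in AT2-like, and 0.401 and 0.212 in Macrophage-like nuclei. A second region 36.2 kb before the Hopx start (chr5:77150777-77151794), named after its values were seen, had 59.6 and 62.3 accessibility CPM in AT1-like and 43.0 and 57.6 in AT2-like nuclei.

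At Gprc5a the leading region lay 46.0 kb before the start, over an exon of the neighbouring gene Ddx47 (chr6:135019211-135020170). Its log2 ratios to AT2-like nuclei were 1.36 (0.59 to 2.16) and 1.55 (0.61 to 2.55), and it was among 5 regions with at least 50 AT1-like counts that lay 39.1 to 48.1 kb before the start. At Akap5 it lay in introns of Mthfd1 and Gm34868, 25.3 kb before the start (chr12:76299092-76300140), with 43.4 and 42.4 accessibility CPM in AT1-like and 18.3 and 31.3 in AT2-like nuclei. At Aqp5 it lay 31.5 kb downstream over an exon of Racgap1 (chr15:99621789-99622798), and at Spock2 80.2 kb downstream over an exon of Chst3 (chr10:60185926-60186838). The latter was equally open in AT2-like nuclei, with log2 ratios of -0.01 (-0.53 to 0.49) and -0.21 (-0.81 to 0.39). At Ager and Rtkn2 the leading region was the one at the start. At Pdpn a single region reached 50 counts in AT1-like nuclei, in an intron of Prdm2 87.0 kb away, and it was 0.87-fold the level of all other nuclei.

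**Figure D5:**
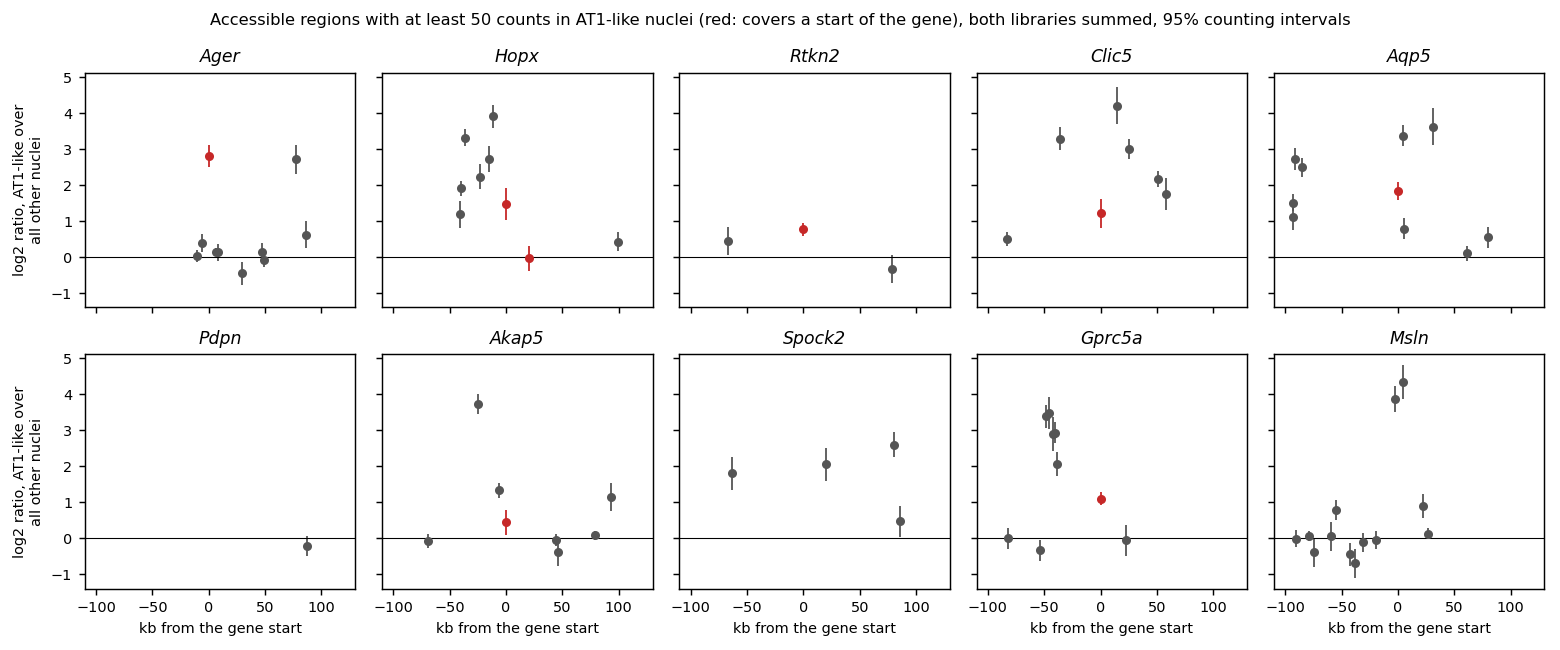
Accessible regions with at least 50 counts in AT1-like nuclei, by distance of their centre from the gene start in kb (horizontal axis, positive in the direction of transcription), with the log2 ratio of AT1-like over all other nuclei, both libraries summed (vertical axis), and 95% counting intervals. Red points cover a start of the gene. Most members have raised regions away from the start, whereas Pdpn has a lone region near 0.

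The region at a gene's start was not alike for the members. Ager's (chr17:34597472-34598309) held 29.6 and 27.3 accessibility CPM in AT1-like, 17.5 and 15.02 in AT2-like and 2.81 and 1.69 in Macrophage-like nuclei, log2 ratios to AT2-like nuclei of 0.75 (0.24 to 1.27) and 0.86 (0.23 to 1.51). Aqp5's (chr15:99590409-99591334) gave 0.88 (0.44 to 1.31) and 0.89 (0.34 to 1.45). The Spock2 start (chr10:60105779-60106369) had 21 and 19 counts in AT1-like nuclei, or 9.40 and 9.25 accessibility CPM, and 0 and 3 counts in AT2-like nuclei. Its PBS level was at least 12.2-fold higher in AT1-like nuclei, taking 3 counts of that library as the floor, and its OVA log2 ratio was 2.89 (1.12 to 5.29). In Macrophage-like nuclei it had 1.71 and 1.20 accessibility CPM. The starts of Clic5 (chr17:44188230-44189165), Akap5 (chr12:76324451-76325329), Rtkn2 (chr10:67979116-67980040) and Gprc5a (chr6:135065090-135065996) had PBS intervals that held 0, and those of Rtkn2 and Gprc5a were above 0 in the OVA library, at 0.85 (0.48 to 1.23) and 0.48 (0.14 to 0.83). Hopx has alternative starts. The upstream one (chr5:77114718-77115633) was 2.80-fold above all other nuclei, while the inner one (chr5:77094777-77095618) was 0.98-fold, with 15.7 and 21.4 accessibility CPM in AT1-like and 18.9 and 20.5 in Macrophage-like nuclei. No shared region covered the start of Pdpn.

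The sequences before 4 of these starts are shown to set side by side a pair whose start region was raised over AT2-like nuclei in both libraries, Ager and Spock2, and a pair whose start region was not, Clic5 and Akap5. They were picked after the values had been seen. They are RefSeq promoter sequences on GRCm38.p6 (mm10), written 5′ to 3′ on the gene's strand and ending at the base before the RefSeq start or, for Spock2, before the first start in GENCODE. For Ager and Clic5 the window ends 12 bases short of the first GENCODE start. Ager is chr17:34597600-34597849 (plus), Spock2 is chr10:60106007-60106218 (plus), Clic5 is chr17:44188322-44188571 (plus) and Akap5 is chr12:76324641-76324890 (plus). Capitals mark GC boxes, GGGCGG on either strand.
Ager: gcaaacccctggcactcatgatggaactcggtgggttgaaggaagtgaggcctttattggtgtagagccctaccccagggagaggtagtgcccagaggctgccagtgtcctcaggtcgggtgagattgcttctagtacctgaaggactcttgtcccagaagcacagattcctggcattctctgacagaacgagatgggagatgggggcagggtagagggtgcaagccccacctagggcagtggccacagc
Spock2: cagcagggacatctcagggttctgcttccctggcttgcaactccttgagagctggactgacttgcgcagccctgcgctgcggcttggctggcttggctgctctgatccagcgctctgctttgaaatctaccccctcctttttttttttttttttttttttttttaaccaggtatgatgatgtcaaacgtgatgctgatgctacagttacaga
Clic5: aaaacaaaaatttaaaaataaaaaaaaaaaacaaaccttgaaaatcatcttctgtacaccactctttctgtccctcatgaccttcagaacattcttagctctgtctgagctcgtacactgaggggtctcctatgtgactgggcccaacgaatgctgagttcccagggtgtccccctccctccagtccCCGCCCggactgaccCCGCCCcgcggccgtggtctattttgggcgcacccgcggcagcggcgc
Akap5: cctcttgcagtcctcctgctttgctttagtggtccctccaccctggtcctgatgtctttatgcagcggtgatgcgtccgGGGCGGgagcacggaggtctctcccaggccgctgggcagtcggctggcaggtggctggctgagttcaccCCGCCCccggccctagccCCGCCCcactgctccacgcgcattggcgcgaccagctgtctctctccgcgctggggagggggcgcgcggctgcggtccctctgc

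Ager and Spock2, whose start regions were raised in AT1-like over AT2-like nuclei in both libraries, have 3 CG pairs in 250 bases and 5 in 212. Clic5 and Akap5, whose start regions were not, have 13 and 20 CG pairs and 2 and 3 GC boxes. The windows of Hopx and Pdpn, not printed, have 8 and 2 CG pairs and no GC box. The upstream Hopx start region had log2 ratios to AT2-like nuclei of -0.20 (-1.13 to 0.68) in PBS and 1.22 (0.34 to 2.16) in OVA, and Pdpn had no shared region there. The start region of Aqp5 was also raised over AT2-like nuclei in both libraries, but its window was not kept. The counts describe the 6 kept windows alone, and a link to accessibility was not tested. Over all 32851 promoters of the table the median was 6 CG pairs, and 32.7% held a GC box. Of the 10 members 7 had an entry, and 6 windows of over 200 bases before the start were kept, those of Hopx and Pdpn being the other two. No match to the TEAD motif GGAATG, the NKX2 motif CAAGTG, the CEBP motif TTGCNNAA, the AP-1 motif TGANTCA, the glucocorticoid receptor motif or the TATA box TATAAA was found on either strand in these 6 windows. The FOX motif TGTTTAC was found in that of Pdpn alone. In all promoters the shares with a match were 12.6% for TEAD, 11.6% for NKX2, 9.56% for CEBP, 6.75% for AP-1, 0.387% for the glucocorticoid receptor, 12.4% for the TATA box and 3.17% for FOX. The letters were searched in the promoter windows alone, and the distal regions were not searched.

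Between the libraries, accessibility near the members in AT1-like nuclei moved as little as their RNA. The summed log2 ratio, OVA over PBS, was 0.09 (0.04 to 0.14), and over 21048 regions with at least 50 counts the median was -0.003, with 1.62% at least 2-fold higher in OVA. Gprc5a, the member whose RNA ratio was highest, had the highest accessibility ratio too, 0.28 (0.12 to 0.45), and Akap5 had 0.15 (0.01 to 0.28). Per kb of peak, however, Gprc5a (0.237) and Rtkn2 (0.237) were level. The start region of Gprc5a went from 48.8 accessibility CPM (109 counts) in PBS to 76.5 (157 counts) in OVA, a log2 ratio of 0.65 (0.29 to 1.01). The upstream Hopx start went from 7.61 (17 counts) to 16.6 (34 counts), a ratio of 1.12 (0.24 to 2.05), without a like difference in Hopx RNA. The intervals of the other 8 members held 0, and their values ran from -0.06 for Spock2 to 0.23 for Rtkn2. Counted per nucleus the summed ratio was -0.35.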

How the data were processed

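Nuclei of sorted fetal lung cells were read for RNA and chromatin accessibility together (10x Multiome), in 1 PBS and 1 OVA library. The authors ran Cell Ranger ARC 2.0.1 on mm10 and deposited raw counts per barcode, UMIs for genes and transposition counts for peaks (a peak set per library), without normalization. Other samples of the study were not analysed here. From these counts, barcodes with under 200 genes (1919 PBS, 454 OVA) or over 60% mitochondrial UMIs were dropped, and simulated doublets marked 6.41% and 4.77% of the rest (293 and 250), which were removed. Nuclei were clustered (Leiden, resolution 1, 30 components of 3000 variable genes without the members and the 3 gene lists) and named from at least 3 raised markers. Each type's UMIs in a library were added up before any ratio. Levels carry exact Poisson intervals, ratios conditional binomial intervals and shares Clopper-Pearson intervals, all at 95%. These cover counting error only, and no p-value is given. Shares and medians over all genes used genes with at least 100 UMIs (30 for the lists), and region calls used regions with at least 50 counts, in the nuclei compared, with calls at 2-fold. Members and their start regions are given at any count. Peaks of the libraries that overlapped were merged, and annotated with GENCODE M21. Of the genes, the 10 members, the 5 others closest in pattern, and the 2 highest and 2 lowest of each list were named, and for each member the region at its start and the one most raised over all other nuclei. The members and lists were chosen with earlier results of these data known. Promoters are from RefSeq. GC and TATA boxes were added to the motifs after the sequences had been seen. The ratio and interval code was tested on simulated data. Python 3.11.15, numpy 2.4.6, scipy 1.17.1, pandas 2.3.3, scikit-learn 1.9.0 and leidenalg 0.10.2 were used.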

Additional observations from a re-analysis of the deposited data

Results flagged for a closer look

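Rtkn2 was at 0.17 in AT1-like and -0.78 in AT2-like nuclei (log2, OVA over PBS), a gap of -0.95 between the types, with intervals on opposite sides of 0. Over nuclear-gene UMIs its values were 0.003 (-0.14 to 0.15) and -1.04 (-1.85 to -0.27), no longer on opposite sides. The sum of the 10 members did the same, at 0.09 and -0.35, a gap of -0.44, but over nuclear-gene UMIs both types were below 0, at -0.08 and -0.62. Neither gap was tested, since each group was 1 library.

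Barcodes left out by the filters on genes and mitochondrial UMIs, 3447 PBS and 714 OVA, held 804 and 206 member UMIs, or 248 and 330 CPM, a log2 ratio of 0.41 (0.18 to 0.63). Ager there had 0.51 (0.13 to 0.88) from 276 and 76 UMIs, and Msln had 0.89 (0.07 to 1.65) from 56 and 20 UMIs. These barcodes entered no comparison.

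An unnamed cluster of 37 PBS and 24 OVA nuclei led by the MHC class II genes H2-Ab1, H2-Eb1 and H2-Aa held 9 and 19 member UMIs, in 4 and 2 nuclei, a log2 ratio of 1.29 (0.08 to 2.62). Another of 27 and 30 nuclei, led by haemoglobin and endothelial genes such as Hbb-bs, Ptprb and Cdh5, held 2 and 19 Aqp5 UMIs, in 1 and 2 nuclei, a log2 ratio of 3.46 (1.40 to 6.60). All were picked out because OVA exceeded PBS by more than counting error in nuclei outside the comparisons.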

How the results depend on the processing

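No paired analysis was possible because there was 1 library a group. Alternatives on 1 AT1-like cluster alone were chosen after seeing the data. Over the alternatives, 159 of 159 values of single members, AT1-like over AT2-like RNA (log2), stayed above 0, between 1.98 and 6.38. The summed ratio in PBS and OVA was 3.26 and 3.88 as a mean over nuclei, 3.31 and 3.78 with doublet calls kept, 3.42 and 3.74 at up to 20% mitochondrial UMIs, 2.28 and 2.55 with nuclei gated by their own markers, 2.37 and 2.48 at Leiden resolution 0.5, and 3.61 and 3.91 at 2. Over nuclear-gene UMIs it was 2.86 in PBS.

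For OVA over PBS in AT1-like nuclei the direction turned. Over nuclear-gene UMIs the sum was -0.083 and Ager -0.056. At up to 20% mitochondrial UMIs the sum was -0.44, Ager -0.41, Rtkn2 -0.32 and Gprc5a -0.23. Centred on the median gene the sum was -0.15, Ager -0.12 and Rtkn2 -0.059. With the joint filter on counts the sum was 0.036 and Rtkn2 -0.014. The sum was 0.18 as a mean over nuclei, 0.16 with doublet calls kept and 0.16 in the shallower cluster alone. Of the 3155 genes with at least 100 UMIs 79 were 2-fold higher. With a minimum of 30 UMIs, which takes in more genes, 271 were, so the 2 counts are not shares of the same set. The cause of these changes was not tested.

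The share of nuclei with 3 or more members, PBS and OVA, was 84.6% and 91.4% (AT1-like) and 12.8% and 12.7% (AT2-like) without thinning. Thinned to 300 UMIs it was 48.7% and 51.9% in AT1-like and 2.29% in PBS AT2-like nuclei. Gated by their own markers it was 78.0% and 77.6% in AT1-like and 5.88% in OVA AT2-like nuclei.

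Summed accessibility, AT1-like over AT2-like, was 0.27 (PBS) and 0.35 (OVA) within 50 kb, 0.30 and 0.66 within 2 kb, and 0.22 and 0.31 with gated nuclei. In PBS it was 0.24 with doublet calls kept and 0.057 in the deeper cluster, where Aqp5 had -0.039 and Gprc5a -0.13. Rtkn2 turned to 0.15 within 2 kb and 0.012 with doublet calls kept, and Pdpn in OVA to -0.33 with gated nuclei. Per nucleus the sums were -0.21 and -0.52, and the OVA median was -0.50. Per nucleus Ager had -0.079 and -0.46, Aqp5 -0.10 and -0.41, Akap5 -0.20 and -0.52, Gprc5a -0.20 and -0.38, Msln -0.090 and -0.49, and Pdpn in OVA -0.33. OVA over PBS was 0.25 within 2 kb, 0.14 in the deeper cluster and -0.35 per nucleus, with Akap5 at -0.29 and Gprc5a at -0.15.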

Other observations

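The unnamed cluster with haemoglobin and endothelial leading genes, 27 PBS and 30 OVA nuclei, held 421 and 333 member UMIs, or 1595 and 1457 CPM, of which Ager gave 117 and 84 UMIs. Nuclei called doublets, 293 and 250, held 3113 and 3751 member UMIs, or 2037 and 1890 CPM. The shallower AT1-like cluster held the members at 1.01-fold (PBS) and 1.07-fold (OVA) the level of the deeper one, log2 ratios of 0.02 (-0.07 to 0.11) and 0.09 (-0.00 to 0.19), while over nuclear-gene UMIs they were 0.29 (0.20 to 0.38) and 0.43 (0.33 to 0.52).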
